A study of Mus musculus with 12 samples.

Results

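The genes described here are those of the VEGF family and related vascular factors: the ligands Vegfa, Vegfb, Vegfc and Pgf, the receptors Flt1 and Kdr, the vasoactive peptide genes Adm and Edn1, and Ero1a. They were taken by name, 9 of the 21631 genes that code for protein on the autosomes and X, and all 9 matched by symbol. Each was examined over its RefSeq span (GRCm38.p6, that is mm10) plus 10 kb on either side. ChIP-seq, the sequencing of DNA recovered with an antibody, mapped binding of HIF1A and of its partner ARNT in N1E115, an established mouse neuroblastoma line that the labels give as NOS1-positive brain neuroblastoma. The 4 ChIP groups were HIF1A at 20% O2, HIF1A at 4% O2, ARNT at 20% O2 and ARNT at 4% O2, with 2 samples in each, and 4 inputs accompanied them. All cells were of this line and were kept for 3 days with 5% CO2, so as labelled the groups differ in antibody and oxygen level. The 4 replicate 1 samples shared a sequencing lane, the ARNT replicate 2 samples of the 2 oxygen levels came from different flow cells, and the HIF1A replicate 2 lists, made from combined runs, were called against another input than the rest. It is a single line, replicates are not stated to be separate cultures, and peak lists hold no expression values, so the labelled cell type could not be checked against its markers.

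HIF-1 is a heterodimer whose alpha subunit is degraded when oxygen is plentiful and whose partner ARNT is constitutive. It binds a short core sequence in the promoters and enhancers of hypoxia-inducible genes. VEGF-A is the main signal by which oxygen-starved tissue calls in new vessels: it acts through the receptor tyrosine kinases encoded by Kdr and Flt1, while VEGF-B and placental growth factor (Pgf) bind the Flt1 product and VEGF-C drives lymphatic growth. Adrenomedullin (Adm) widens vessels, endothelin-1 (Edn1) constricts them, and Ero1a encodes the oxidase of the endoplasmic reticulum that supplies oxidizing power for disulfide bonds in secreted proteins such as VEGF-A.

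The 8 lists held between 1808 entries (ARNT at 20% O2 replicate 2) and 42701 (HIF1A at 4% O2 replicate 1). The other lists held 5393 and 13386 for HIF1A at 20% O2, 13655 for HIF1A at 4% O2 replicate 2, 7252 for ARNT at 20% O2 replicate 1, and 24942 and 9920 for ARNT at 4% O2. The 2 lists of HIF1A replicate 2 give single positions (1 bp) and the other 6 give intervals. The lists hold no read counts, so depth is unknown. The score of a peak is the authors' own value. Its scale is not named, so it is given here as a percentile of the list it comes from (100 is the top entry). Percentiles of lists of different lengths cannot show whether binding changed.

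The sequences upstream of the genes' annotated starts are shown first, since they hold the positions to which several of the peaks refer. They are the 250 bases before a start, written 5′ to 3′ on the gene's strand, from RefSeq (GRCm38.p6), for Ero1a and Pgf, where all 4 lists at 4% O2 had a peak over the promoter window, Adm and Vegfa, where 2 and 3 lists did, and Vegfb, where none did. Capitals mark the HIF core letters ACGTG or GCGTG on either strand, so that CACGT and CACGC are matches on the opposite strand. The positions are chr14:45318573-45318822 for Ero1a (minus strand), chr12:85177314-85177563 for Pgf (minus strand, the start at 85177313), chr7:110627407-110627656 for Adm (plus strand), chr17:46032378-46032627 for Vegfa (minus strand) and chr19:6987652-6987901 for Vegfb (minus strand).
Ero1a: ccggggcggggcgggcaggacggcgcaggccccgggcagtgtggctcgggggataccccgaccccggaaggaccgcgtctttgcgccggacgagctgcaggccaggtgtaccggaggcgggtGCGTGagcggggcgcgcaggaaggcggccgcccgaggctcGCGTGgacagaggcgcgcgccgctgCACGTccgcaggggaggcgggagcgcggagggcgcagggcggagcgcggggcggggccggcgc
Pgf: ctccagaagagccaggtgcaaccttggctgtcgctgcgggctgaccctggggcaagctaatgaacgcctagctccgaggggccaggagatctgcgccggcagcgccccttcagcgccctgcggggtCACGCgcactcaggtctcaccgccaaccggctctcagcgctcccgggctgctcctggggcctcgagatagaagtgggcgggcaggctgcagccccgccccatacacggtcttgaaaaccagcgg
Adm: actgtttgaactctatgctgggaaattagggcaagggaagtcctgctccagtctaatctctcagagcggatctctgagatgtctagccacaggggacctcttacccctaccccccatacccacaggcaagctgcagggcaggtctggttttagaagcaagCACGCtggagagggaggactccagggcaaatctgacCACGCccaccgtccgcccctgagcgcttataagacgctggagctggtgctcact
Vegfa: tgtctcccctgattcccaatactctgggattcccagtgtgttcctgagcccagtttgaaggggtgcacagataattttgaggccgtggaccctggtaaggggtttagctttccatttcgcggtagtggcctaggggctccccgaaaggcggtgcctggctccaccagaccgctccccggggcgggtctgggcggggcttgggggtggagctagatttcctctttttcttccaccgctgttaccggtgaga
Vegfb: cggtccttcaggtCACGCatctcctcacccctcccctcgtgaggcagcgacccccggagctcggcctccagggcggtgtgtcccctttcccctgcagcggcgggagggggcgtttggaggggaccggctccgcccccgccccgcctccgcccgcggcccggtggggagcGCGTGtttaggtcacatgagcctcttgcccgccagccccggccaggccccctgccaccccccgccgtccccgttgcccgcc

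The 9 genes fell into 5 with HIF1A and ARNT regions at 4% O2 and 4 without. At Vegfa, Vegfb, Pgf, Adm and Ero1a both HIF1A lists and both ARNT lists at 4% O2 had peaks that overlapped between replicates, called a region here (overlap of at least 1 bp, with 1 bp entries widened to 150 bp). Flt1, Kdr, Vegfc and Edn1 had no region in any group. The share for HIF1A at 4% O2 was 5 of 9, where 34.2% of all protein-coding genes had a region in the same window. For ARNT at 4% O2 it was also 5 of 9, against 27.7% of all genes. A HIF1A and an ARNT region overlapped at the same 5 genes at 4% O2, against 23.0% of all genes. At Vegfb the ARNT region, and so the overlap, lay inside the neighbouring gene Plcb3, 7789 bp past the 3′ end of Vegfb. Within the span plus 5 kb, ARNT regions at 4% O2 were at 4 of 9, without Vegfb, against 24.3% of all genes. At 20% O2 no member had a HIF1A region (2165 of 21631 genes, 10%, did), 1 had an ARNT region (7.11% did), namely Ero1a, and none had an overlapping pair (2.59%). The 9 genes were chosen by name, with earlier results of these data known. These counts were therefore not tested and are a description beside the background.

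**Figure D1:**
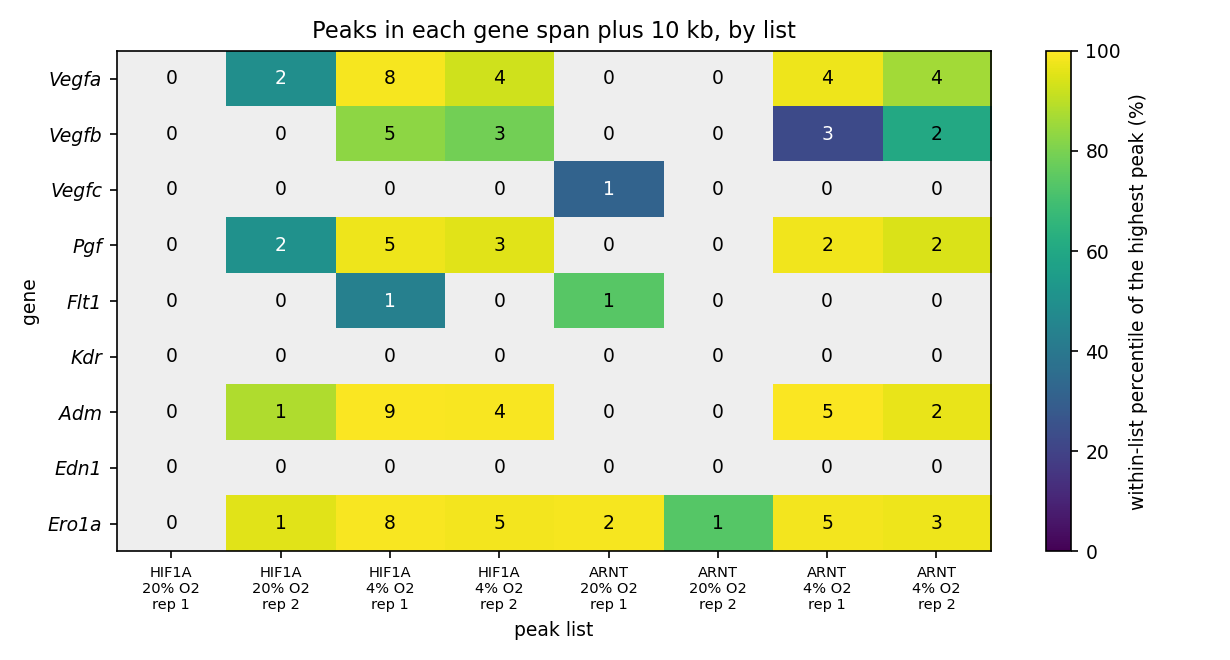
Grid of the 9 genes (rows) by the 8 peak lists (columns). The number in each cell is the number of peaks in the gene span plus 10 kb, the colour is the within-list percentile (%) of the highest of them, and grey means no peak. Vegfa, Vegfb, Pgf, Adm and Ero1a have peaks in all 4 lists at 4% O2, and Kdr and Edn1 in none of the 8.

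The number of members with a peak differed between lists. HIF1A at 4% O2 replicate 1, the longest list, had a peak at 6 of 9, the 5 genes above and Flt1, against 56.9% of all genes. The other lists at 4% O2 had peaks at the 5 genes alone, where 34.8% of all genes had one for HIF1A replicate 2, and 49.3% and 35.5% for ARNT replicates 1 and 2. At 20% O2 HIF1A replicate 1 had a peak at none of the 9 genes (11.3% of all genes), and replicate 2 at 4, namely Vegfa, Pgf, Adm and Ero1a (31.7%). ARNT at 20% O2 had peaks at 3 in replicate 1, namely Vegfc, Flt1 and Ero1a (22.3%), and at Ero1a in replicate 2 (7.60%). The absence of HIF1A regions at 20% O2 thus rests on replicate 1: without it 4 of 9 genes had a HIF1A peak at 20% O2.

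The number of peaks was higher in each list at 4% O2 than in each list at 20% O2 of the same antibody at Vegfa, Vegfb, Pgf, Adm and Ero1a, that is at 5 of 9 genes, against 10.3% of all protein-coding genes. Each of the 5 had an exact permutation p of 0.0556 (two-sided, labels exchanged within each antibody), the smallest that 36 arrangements allow. After Benjamini-Hochberg adjustment over 21631 genes the value of the exact permutation test was 0.541 at each, and no gene of the genome had an adjusted or an unadjusted p under 0.05. One antibody alone cannot go below an exact p of 0.333. Within replicate 1, whose lists share a lane, the mean difference was 6 peaks at Vegfa, 4 at Vegfb, 3.5 at Pgf, 7 at Adm and 5.5 at Ero1a. Within replicate 2 it was 3 at Vegfa, 2.5 at Vegfb, 1.5 at Pgf, 2.5 at Adm and 3 at Ero1a. The lists at 4% O2 were also the longer ones for each antibody and number, and the part of list length in the difference was not tested beyond equal lengths. When each list was shortened to its 1808 highest entries, Vegfa and Pgf still had more peaks in each list at 4% O2 (1.85% of all genes did), and Vegfb, Adm and Ero1a did not. The mean differences were then 1 at Vegfa and 1 at Pgf, 0.75 at Adm, 0.25 at Ero1a and 0 at Vegfb. In the plot of peak numbers by gene the 2 lists of HIF1A at 4% O2 stood apart by up to 5 peaks.

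**Figure D2:**
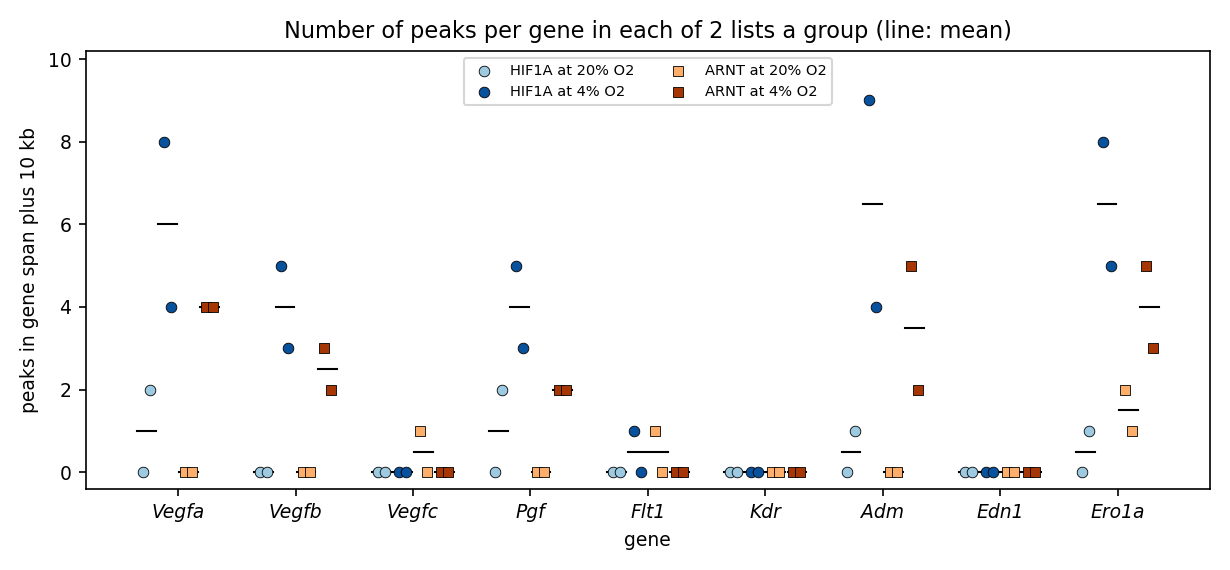
Number of peaks in the gene span plus 10 kb (vertical axis) for each of the 9 genes. Each point is 1 list, circles are HIF1A and squares ARNT, light colours 20% and dark colours 4% O2, and the short line is the mean of the 2 lists. At Vegfa, Vegfb, Pgf, Adm and Ero1a the dark points lie above the light points of the same shape.

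Among the ligands, Vegfa (chromosome 17, 46016993 to 46032377, minus strand) had the most peaks. It had 0 and 2 HIF1A peaks at 20% O2 in replicates 1 and 2, 8 and 4 HIF1A peaks at 4% O2, 0 and 0 ARNT peaks at 20% O2, and 4 and 4 ARNT peaks at 4% O2. The HIF1A numbers at 4% O2 (6 ± 2.83, SD, n = 2) and at 20% O2 (1 ± 1.41, SD, n = 2) did not overlap, nor did those of ARNT. The mean difference over all 8 lists was 4.5 peaks. No other annotated gene lay in the Vegfa window.

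The Vegfa peaks formed 8 separate sites, and at 4% O2 the one at the promoter ranked highest in each list. That site (46032162 to 46032996) spans the start and ranked at 98.7 and 92.7 in the HIF1A lists and at 97.4 and 86.1 in the ARNT lists of 4% O2. The summit in HIF1A replicate 2 lay 464 bp upstream of the start, and that of the same replicate at 20% O2, at percentile 42.7, lay 21 bp from it. The site was therefore marked in 5 of 8 lists, with HIF1A at 20% O2 replicate 2 as the one list of 20% O2. The summit lies beyond the sequence printed above, which holds neither core motif in Vegfa.

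Upstream of Vegfa a further site at 4284 bp from the start was present in all 4 lists at 4% O2 and in none at 20% O2, at percentiles of 89 and 26.3 for HIF1A and 70.2 and 4.91 for ARNT. A site inside the gene, 1252 bp from the start, had HIF1A peaks in 3 lists (49.6 at 20% O2 replicate 2, and 48.9 and 75.3 at 4% O2) and an ARNT peak in replicate 2 at 4% O2 (66.7). A site 9104 bp upstream, near the edge of the window, was in both HIF1A lists at 4% O2 and 1 ARNT list. The upstream sites ranked lower than the promoter in every list that held them.

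Higher percentiles than at the Vegfa promoter were found just outside the window. A site 12648 bp past its 3′ end (summit at 46004345, in no annotated gene) ranked at 99.4 and 98.1 in the HIF1A lists and at 99 and 94.2 in the ARNT lists of 4% O2. These percentiles were above those of the Vegfa promoter in each of the 4 lists. HIF1A at 20% O2 replicate 2 had a peak there too, at 79.8. The next protein-coding gene besides Vegfa was Mrps18a, which had its nearer end 106659 bp away. This site was not counted in any number given for Vegfa above.

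Pgf (chromosome 12, 85166637 to 85177785, minus strand) had 0 and 2 HIF1A peaks at 20% O2, 5 and 3 at 4% O2, no ARNT peak at 20% O2, and 2 and 2 ARNT peaks at 4% O2. The leading site spans the 5′ end of the gene and ranked at 97.5 and 95.6 for HIF1A and at 97.8 and 94.5 for ARNT at 4% O2. The summit in HIF1A replicate 2 lay 96 bp upstream of the gene's 5′ end and that of 20% O2, at percentile 25.2, lay 11 bp from it. The site was in no other list of 20% O2.

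A second peak within the same stretch lay over the promoter sequence printed above, whose start is inside the gene span. Its summit in HIF1A replicate 2 at 4% O2 ranked at 74.1 and lay 11 bp from the GCGTG match, which starts 124 bases before that start and was covered by 3 interval peaks. Of the 2678 promoter windows in the table that hold a summit of this list, 39.5% have a match within 15 bp of one, a distance chosen after these values were seen. A further site 2618 bp inside Pgf had peaks in both HIF1A lists at 4% O2 (82.5 and 32.5), in HIF1A at 20% O2 replicate 2 (50.4) and in ARNT at 4% O2 replicate 2 (35.4).

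Vegfb (chromosome 19, 6982472 to 6987651, minus strand) differed from the other ligands with regions in where they lay. It had no peak at 20% O2 in any list, 5 and 3 HIF1A peaks at 4% O2, and 3 and 2 ARNT peaks at 4% O2. Its window holds 7 other protein-coding genes, and the highest site was inside the end of one of them, Plcb3, 323 bp from that gene's end and 7789 bp past the 3′ end of Vegfb, at percentiles of 83 and 78.8 for HIF1A and 22.5 and 60.2 for ARNT. Inside Vegfb itself a site 340 bp from the start was in both HIF1A lists (53 and 50.1) and in 1 ARNT list (34.3). Within the gene span alone, or plus 5 kb, Vegfb had a HIF1A region and no ARNT region. Its promoter window holds 2 GCGTG matches and overlapped no peak.

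Vegfc (chromosome 8, 54077532 to 54186454, plus strand) had a single peak in the 8 lists, in ARNT at 20% O2 replicate 1, at percentile 32 and 86172 bp inside the gene. No peak of any list lay between 10 and 50 kb from it either. The Vegfc promoter window holds neither core motif.

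Both receptor genes were without a region. Kdr (chromosome 5, 75932827 to 75979072, minus strand), the main signalling receptor of VEGF-A, had 0 peaks in each of the 8 lists. Flt1 (chromosome 5, 147561604 to 147726438, minus strand), the longest of the 9 genes with a span of 164835 bp, had 1 peak in HIF1A at 4% O2 replicate 1 (43.6) and 1 in ARNT at 20% O2 replicate 1 (74). These 2 peaks overlapped, 66597 bp inside the gene, where the lncRNA Gm35383 is also annotated, and none of the replicate 2 lists had one. Neither receptor gene had a peak between 10 and 50 kb away. Their promoter windows hold 2 GCGTG matches for Kdr and 1 for Flt1.

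The vasoactive peptides stood at opposite ends. Adm (chromosome 7, 110627657 to 110629820, plus strand) had 0 and 1 HIF1A peaks at 20% O2, 9 and 4 at 4% O2, no ARNT peak at 20% O2, and 5 and 2 ARNT peaks at 4% O2. The mean difference was 4.75 peaks (0.75 with equal list lengths), and the spread between the HIF1A lists of 4% O2 was wide (6.5 ± 3.54, SD, n = 2). Edn1 (chromosome 13, 42301476 to 42307990, plus strand) had 0 peaks in every list and none between 10 and 50 kb. Over all genes, 38.9% had no peak in any list, as did Kdr and Edn1. The Edn1 promoter window holds 1 ACGTG match on the opposite strand, at position 22 counted from the start as 1.

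The highest Adm site lay behind the gene and not at its promoter. It extended over 1415 bp (110629964 to 110631378) and ranked at 99.6 and 98.9 in the HIF1A lists and at 99.4 and 96.6 in the ARNT lists of 4% O2. The summit in HIF1A replicate 2 lay 597 bp past the 3′ end of Adm, inside the annotated lncRNA Gm28863, which also covers Adm. HIF1A at 20% O2 replicate 2 had its summit 25 bp from that place, at percentile 88.1. No ARNT list of 20% O2 had a peak there.

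Peaks over the Adm promoter window were lower and were found in replicate 1 alone, at percentiles of 77.3 for HIF1A and 41.5 for ARNT at 4% O2. Both covered the 2 GCGTG matches that start 90 and 54 bases before the start. A site 825 bp upstream was in all 4 lists at 4% O2 (61.6 and 43.4 for HIF1A, 3.4 and 62.4 for ARNT). At each of the 4 lists the site behind the gene ranked above every other Adm site.

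**Figure D3:**
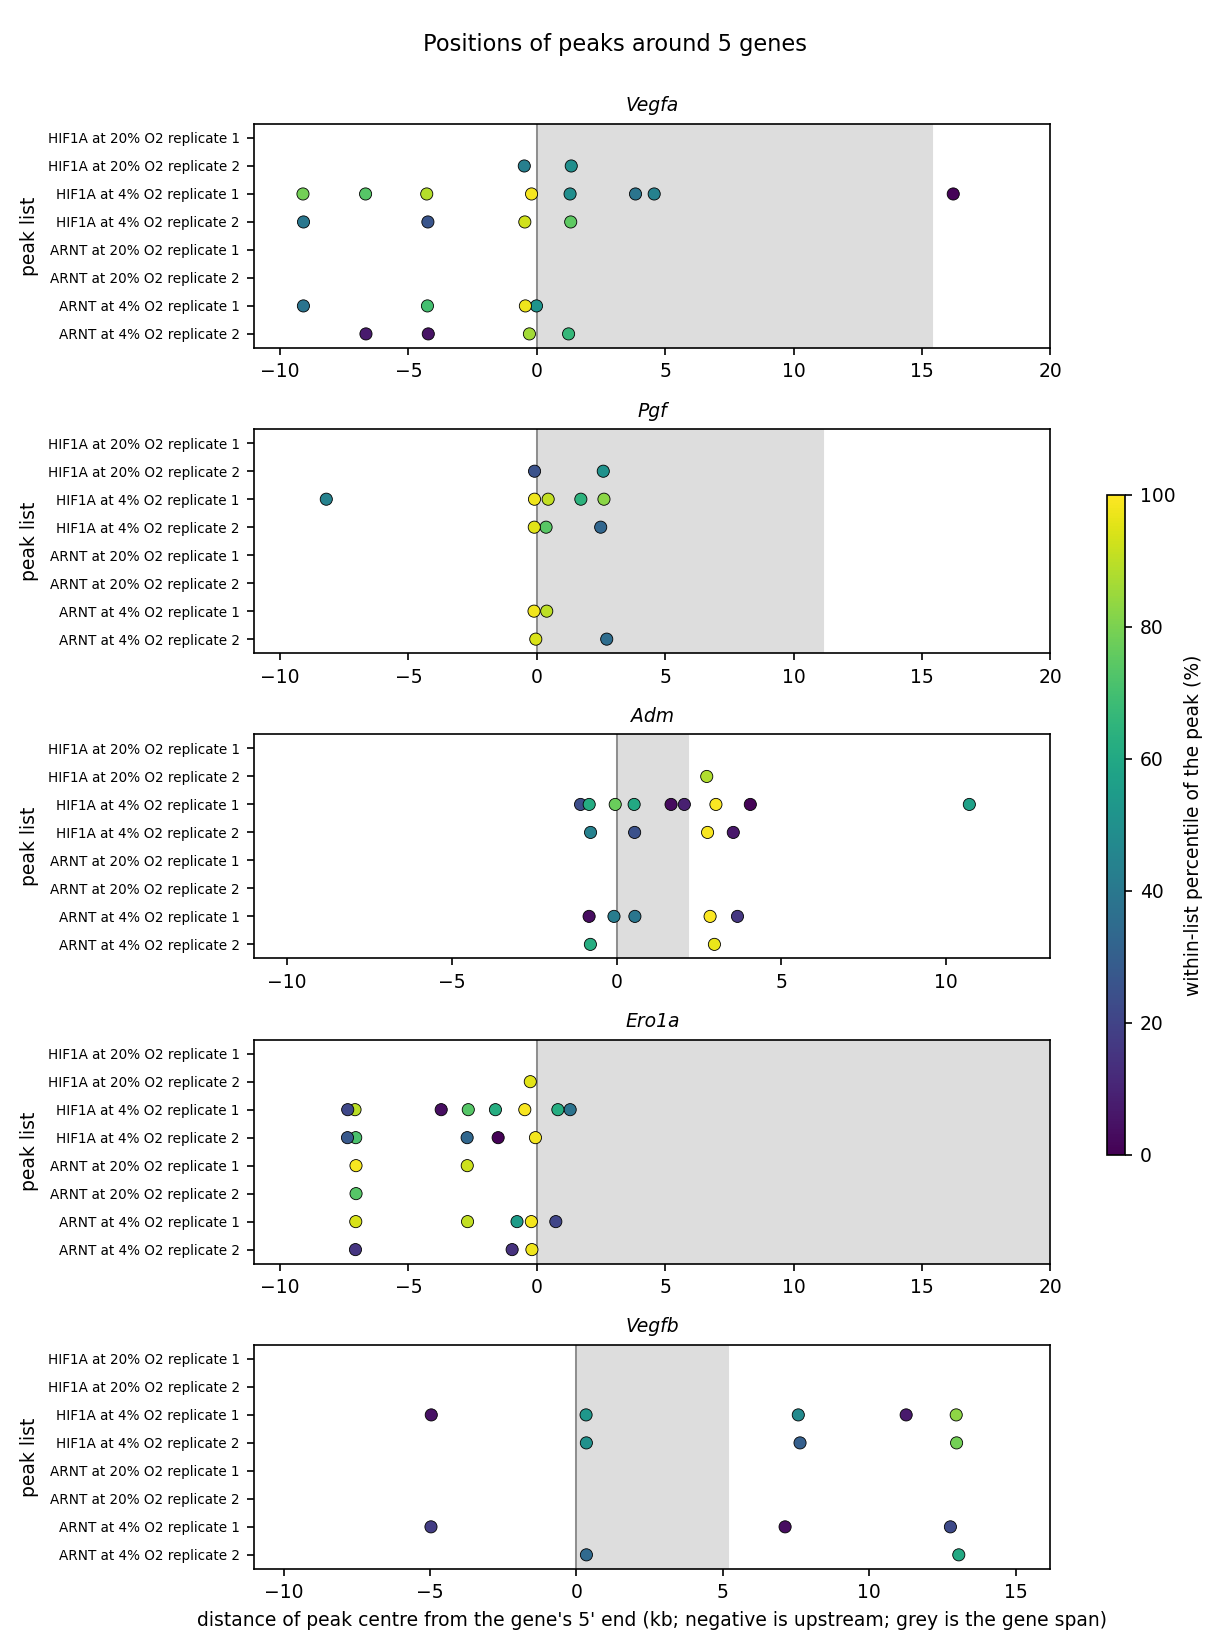
Positions of all peaks in the windows of Vegfa, Pgf, Adm, Ero1a and Vegfb, as the distance of the peak centre from the gene's 5′ end in kb (horizontal axis, negative upstream), 1 row per list. Colour is the within-list percentile (%) and grey shading is the gene span, and axes end at 20 kb at most, which hides no peak. The highest peaks of Vegfa, Pgf and Ero1a at 4% O2 lie at the 5′ end, those of Adm behind the gene, and the site 7077 bp upstream of Ero1a has peaks in both ARNT lists of 20% O2.

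Ero1a (chromosome 14, 45283087 to 45318572, minus strand) was the one member with an ARNT region at 20% O2. It had 0 and 1 HIF1A peaks at 20% O2, 8 and 5 at 4% O2, 2 and 1 ARNT peaks at 20% O2, and 5 and 3 at 4% O2. The promoter site ranked at 99.2 and 98.4 for HIF1A and at 98.1 and 97.4 for ARNT at 4% O2, and HIF1A at 20% O2 replicate 2 had a peak there at 95.7. No ARNT list of 20% O2 had a peak at the promoter. The HIF1A summit at 4% O2 lay 50 bp upstream of the start and 9 bp from the ACGTG match printed above, which starts 63 bases before the start. The 2 GCGTG matches of the same promoter lay 34 and 74 bp from that summit, and the summit of 20% O2 lay 201 bp from it. Among promoter windows with a summit of HIF1A at 4% O2 replicate 2, 39.5% have a core match within 15 bp of one. That distance was chosen after these values were seen.

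The ARNT region of 20% O2 was at a different place, 7077 bp upstream of Ero1a (45325526 to 45325773). There ARNT ranked at 98.8 and 73.7 in the lists of 20% O2 and at 94 and 15.5 in those of 4% O2. HIF1A had peaks there at 4% O2 (89.5 and 71.2) and none at 20% O2, so 6 of 8 lists held the site. The centres of all 5 interval peaks lay within 27 bp of the HIF1A summit. The nearest end of a coding gene was that of Psmc6, a proteasome subunit gene, 4174 bp away, so the site is closer to Psmc6 than to Ero1a. A site 2673 bp upstream of Ero1a had ARNT peaks in both replicate 1 lists (92.4 at 20% O2 and 90.7 at 4% O2), with HIF1A at 73.8 and 33.1 at 4% O2.

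The windows of the 9 genes held 98 peaks at 37 sites. Of these sites, 17 were in both HIF1A lists at 4% O2 and 8 in both ARNT lists, and all 8 were among the 17. Sites with a peak at 20% O2 in any list numbered 10, of which the Vegfc site was the only one with none at 4% O2. A single list held 15 sites, and for 13 of them it was HIF1A at 4% O2 replicate 1. At the 8 sites shared by both antibodies the summit of HIF1A replicate 2 was inside the ARNT interval in both ARNT lists, except at the Plcb3 site in the Vegfb window, where it lay 211 bp from the centre of the replicate 1 interval. These 8 sites were chosen by the overlap of the same peaks. That the summit lies in or near the ARNT intervals follows largely from this choice.

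Across the 11 promoter sequences of the 9 genes, core matches were found at genes with regions and at genes without. ACGTG was found at the promoters of Ero1a and Edn1 and at an internal start of Vegfa, and no list had a peak over the last 2. In the table as a whole, 19.6% of 32851 promoter sequences of 300 bases (250 before to 50 after a start) hold ACGTG, 32.4% hold GCGTG and 43.8% hold either, on either strand. Of the 3338 that overlap a HIF1A region at 4% O2, 82.8% hold either, and of the 2939 that overlap an ARNT region 82.7%. A match is a description of letters, and no match says only that these letters are not in the window.

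Other genes of the vascular pathways were taken from 5 lists of 42 genes in all. At 4% O2 a HIF1A region was found at 18 of the 42 (42.9%, against 34.2% of all genes) and an ARNT region at 13 (31.0%, against 27.7%). At 20% O2 the numbers were 8 for HIF1A and 3 for ARNT, where 10% and 7.11% of all genes had a region. Peak numbers were higher in each list at 4% O2 than in each list at 20% O2 of the same antibody for 7 of the 42, against 10.3% of all genes. None of these lists was tested. The place of the peaks and the neighbouring genes were not examined for the 42 genes, so a peak counted may lie nearer another gene.

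**Figure D4:**
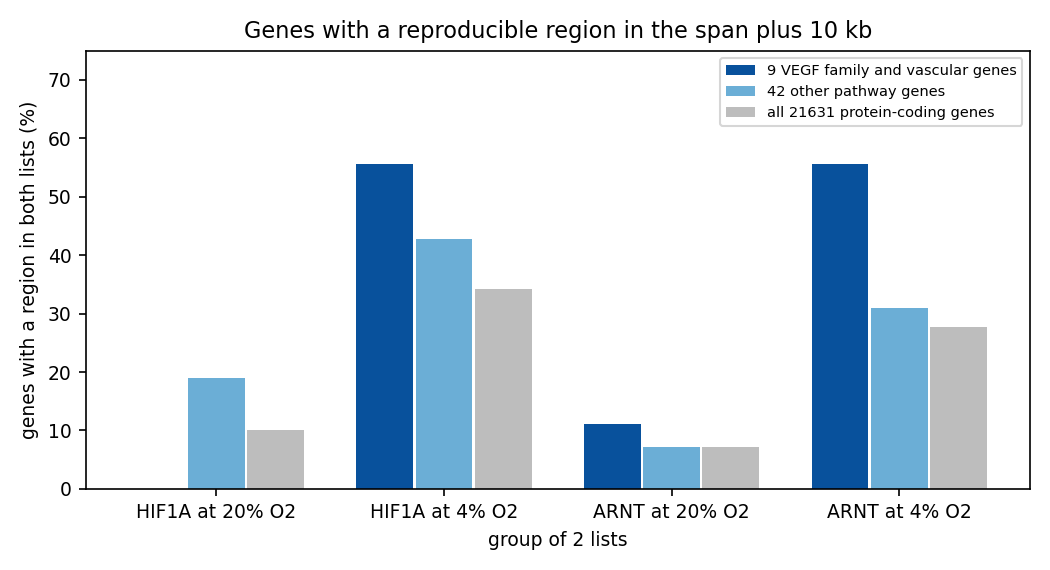
Percent of genes with a region in both lists of a group (vertical axis) for the 9 genes, the 42 other pathway genes and all 21631 protein-coding genes. At 4% O2 the bars of the 9 genes stand at 55.6% for both antibodies, above those of the other sets, and at 20% O2 at 0% for HIF1A and 11.1% for ARNT. The ARNT region counted for Vegfb at 4% O2 lies inside the neighbouring gene Plcb3.

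Of the other VEGF family receptors and ligands, Flt4, Nrp1, Nrp2 and Vegfd, 3 had a HIF1A region at 4% O2 and none an ARNT region. Of all genes, 34.2% had a HIF1A region and 27.7% an ARNT region at 4% O2. Flt4, the receptor of VEGF-C, had no region of either kind. Percentiles given for these and the other pathway genes are those of the highest peak in the window. Nrp1 and Nrp2, which encode the neuropilin co-receptors, also had HIF1A regions at 20% O2. The highest HIF1A peaks at Nrp2 ranked at 74.4 and 87 at 20% O2 and at 94.7 and 64.2 at 4% O2, and those at Nrp1 at 74.7 and 92.4, and at 75 and 23.5. Vegfd, which encodes a lymphatic ligand, had 1 HIF1A peak in each list at 4% O2, at 88.2 and 33.7. The difference between antibodies was not tested.

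Of the 6 genes in the list of angiopoietins and Tie receptors, 4 had a HIF1A region at 4% O2 (66.7%, against 34.2% of all genes). An ARNT region was found at 2 (33.3%, against 27.7%). Angpt4 and Tek, the angiopoietin receptor gene, had both, at highest percentiles of 95.4 and 76.4 (HIF1A) and 77.8 and 74.1 (ARNT) for Angpt4, and 91.5 and 69.3, and 30 and 52.4, for Tek. Angptl4, a secreted inhibitor of lipoprotein lipase, and Angpt2 had HIF1A regions at both oxygen levels. At Angptl4 the HIF1A peaks ranked at 90.3 and 83.2 at 20% O2 and at 92 and 73 at 4% O2, and its ARNT region was at 20% O2 (79.7 and 8.43).

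Partners of adrenomedullin and endothelin had HIF1A regions at 4 of 11 genes at 4% O2 (36.4%, against 34.2% of all genes). ARNT regions were at the same number (36.4%, against 27.7%), with an overlapping pair (23.0% of all genes) at each of the 4. They were Adm2, Edn3, Ece1 and Ece2. Adm2, which encodes the related peptide intermedin, ranked highest at 4% O2, with 99.9 and 99.5 in the HIF1A lists and 99.7 and 98.8 in the ARNT lists. At 20% O2 Adm2 had a HIF1A peak in replicate 2 (98.8) and an ARNT peak in replicate 1 (55.5). Edn3, a further endothelin gene, had peaks in all 8 lists, with regions in all 4 groups and 3.25 more peaks on average at 4% O2. Its exact permutation p of 0.0556 is the smallest the test allows. Adm2, Ece2, Angpt4, Tek and Notch1 had the same value, among others, as did 10.3% of all genes. The endothelin-converting enzyme genes Ece1 and Ece2 had 1 HIF1A peak each at 20% O2, in replicate 2. Ramp2, a receptor partner of adrenomedullin, had an ARNT region at 20% O2 alone (75.3 and 32.4).

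Partners of Ero1a in oxidative folding had HIF1A regions at 3 of 7 genes at 4% O2 (42.9%, against 34.2% of all genes). They had ARNT regions at 2 of 7 (28.6%, against 27.7%), and no region at 20% O2. P4hb, the protein disulfide isomerase that the Ero1a product reoxidizes, ranked at 99 and 98 for HIF1A and at 98.8 and 97.3 for ARNT at 4% O2, and HIF1A replicate 2 had a peak there at 20% O2 (82.3). Pdia4, a further isomerase gene, had a HIF1A region, with the highest HIF1A peaks in its window at 37.4 and 23.1. Prdx4, a peroxiredoxin gene of the same compartment, had a HIF1A region at 63.6 and 21.5, and Pdia6 an ARNT region at 13.6 and 38.3. In the list of other vascular factors, HIF1A had regions at 4 genes of 14 at 4% O2 (28.6%, against 34.2% of all genes). ARNT had them at 5 (35.7%, against 27.7%). The window of Nos3, the endothelial nitric oxide synthase, led with highest peaks at 99.3 and 97.7 for HIF1A and 98.3 and 96.2 for ARNT. Notch1, a receptor of vessel patterning, ranked at 92.1 and 82.7 for HIF1A and 88.7 and 62.9 for ARNT, and Fgf2, a growth factor gene, at 83 and 64.2, and 63.1 and 15.2. Dll4, which encodes a Notch ligand, had an ARNT region alone. At 20% O2 Nos3, Notch1 and Vash1 had HIF1A regions.

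Genes with the pattern most like that of Vegfa over the 8 lists, by Euclidean distance of the highest percentile in each list (0 for no peak), were Padi4 (5.28), Ywhaq (6), Pde11a (6.22), Rinl (6.64) and Glg1 (6.77). Those most like Adm were Ube2d2a (1.43), Egln1, the gene of an oxygen-sensing prolyl hydroxylase that marks HIF1A for degradation (1.87), Pkp2 (2), and Vwa1 and Tmem88b (2.67 each, with the same percentiles in every list). The distance is a description over 8 lists that differ in length. Genes whose windows overlap one another were not removed, so 2 genes with the same percentiles need not be separate places.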

How the data were processed

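ChIP-seq peak lists of 8 samples (HIF1A and ARNT at 20% and 4% O2, 2 lists a group) were used, and the 4 inputs entered through the authors' calls alone. Groups and replicate numbers came from sample titles. BWA, Picard and MACS2 and the build mm10 are named per the submitters' processing notes, with versions and settings not given in the sources used here. Each list was called by the authors for 1 sample, against an input of its own oxygen level (input 5 for HIF1A replicate 2 and input 4 otherwise, as the files are named), so lists called against the same input share its chance values. Lanes were taken per the file headers, which the HIF1A replicate 2 lists lack. Each entry has a score, deposited by the authors without a named scale, which was used to rank entries within a list.

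Entries overlapping a gene span plus 10 kb by at least 1 bp were counted (Python 3.11.15, numpy 2.4.6, pandas 2.3.3). For regions, 1 bp entries were widened to 150 bp. Numbers at 4% and 20% O2 were compared for all 21631 protein-coding genes by a two-sided exact permutation test with Benjamini-Hochberg adjustment, tested on simulated data. Since nothing says that replicates were separate cultures, the p-values reflect spread that may be technical. The members and lists were chosen with earlier results of these data known. Named were all 9 members, pathway genes with a region at 4% O2 (up to 8 a list, by mean percentile) or at 20% O2, and the 5 genes most like Vegfa and Adm. One gene that this rule names is not reported here. Annotation gave gene spans, and exons were not used here. Alternatives were other windows (the span alone, or plus 5 or 50 kb), an overlap of 50% of the shorter entry or centres within 200 bp, 300 bp widening, equal list lengths (1808 entries), the upper 50% of each list by score, entries within 500 bp counted once, a replicate block and each replicate left out.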

Additional observations from a re-analysis of the deposited data

How the results depend on the processing

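The regions of HIF1A at 4% O2 at member genes numbered 4 to 6 under the alternatives, while the share of all genes with one ran from 6.65% (equal list lengths, 4 members) to 56.9% (without replicate 2, 6 members). Those of ARNT at 4% O2 fell to 3 within the gene span alone (Vegfa, Pgf and Ero1a, against 18.4% of all genes) and were 4 or 5 otherwise, with shares of all genes from 5.41% (equal lengths) to 49.3% (without replicate 2). Wherever the number was 4, Vegfb was the gene lost. This was so within 5 kb, with equal lengths, with an overlap of 50% of the shorter entry (27.2%) and in the upper 50% of each list (15.9%). The Ero1a region of ARNT at 20% O2 lies upstream, so the number was 0 within the span alone and within 5 kb. HIF1A at 20% O2 had 1 (Pgf) within 50 kb, where 20.6% of all genes had one. Leaving out a replicate gave 0 to 4 for HIF1A (11.3% to 31.7% of all genes) and 1 to 3 for ARNT (7.60% to 22.3%) at 20% O2. At 4% O2 it gave 5 to 6 for HIF1A (34.8% to 56.9%) and 5 to 5 for ARNT (35.5% to 49.3%). For overlapping pairs it gave 0 to 0 at 20% O2 (4.61% to 7.14%) and 5 to 5 at 4% O2 (26.1% to 44.6%). Genes higher at 4% O2 at the smallest p were 2 with equal list lengths (Vegfa and Pgf, against 1.85% of all genes), 1 within the span alone (Pgf, 5.26%), 3 with entries within 500 bp counted once (Vegfa, Vegfb and Adm, 9.35%) and 4 within 50 kb (not Pgf, 19.5%). They were 5 to 5 without a replicate, where 13.8% (without replicate 1) and 38.7% (without replicate 2) of all genes were so.

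The number of members with a peak moved by over 1.5 times in lists of 20% O2 only. ARNT replicate 1 had 5 within 50 kb and 1 with equal lengths. ARNT replicate 2 had 0 within the span and 0 within 5 kb. HIF1A replicate 1 had 1 within 50 kb, and HIF1A replicate 2 had 2 within the span and 2 with equal lengths (Adm and Ero1a). The share of all genes with a peak in each list is not given at these settings. These shifts therefore have no background beside them and say nothing particular to the 9 genes. Of the 42 pathway genes, ARNT at 20% O2 had regions at 1 within 5 kb (6.07% of all genes) and 8 within 50 kb (14.7%). HIF1A at 20% O2 had them at 13 within 50 kb (20.6%) and 3 with equal lengths (2.94%). At 4% O2 ARNT had them at 20 within 50 kb (46.0%) and 4 with equal lengths (5.41%). HIF1A at 4% O2 had them at 4 with equal lengths (6.65%). Leaving out a replicate gave 3 to 8 for ARNT at 20% O2 (7.60% to 22.3% of all genes) and 17 to 25 at 4% O2 (35.5% to 49.3%). For HIF1A it gave 9 to 20 at 20% O2 (11.3% to 31.7%) and 20 to 33 at 4% O2 (34.8% to 56.9%).

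With a replicate block (16 arrangements, smallest exact permutation p of 0.125) the same 5 genes were at the smallest p, as were 11.9% of all genes. The main test did not take the replicate numbers as pairs. Deviations from the group means correlated over genes at -0.01 for HIF1A and 0.28 for ARNT between oxygen levels. These values cannot show that a block is absent, since the replicate 1 samples shared a lane. For HIF1A, replicate 1 was also the shorter list at 20% O2 and the longer at 4% O2. The search for motifs in windows around peaks of 100, 300 and 500 bp was not run, as it needs a genome. The differences of Kdr, Edn1 and Flt1 were 0 in each setting. Of the other genes, Vegfb and Vegfc came to 0 with equal list lengths and Vegfc without replicate 1, and none changed sign. Equal list lengths lowered the difference from 4.5 to 1 at Vegfa, 2.5 to 1 at Pgf, 4.75 to 0.75 at Adm and 4.25 to 0.25 at Ero1a. The cause of these changes was not tested, and depth is unknown.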
